A study of Homo sapiens with 14 samples.

Results

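The genes described here build and start the replicative helicase: the 6 subunits of the MCM2 to MCM7 ring, MCM10, the licensing factors CDC6 and CDT1, and GINS2. They were taken by symbol from the deposited read count and RPKM tables, and all 10 were found among 28120 genes. All 10 also passed the filter on low counts, which left 15181 genes to test. The cells were PANC-1, an established line from a human pancreatic ductal carcinoma, at passage 3 to 5 per the labels. They had been exposed to proanthocyanidins (PA, plant polyphenols) at 20 µg/ml for 3, 12 or 24 h, or to the solvent DMSO for 0, 3, 12 or 24 h. Each of these 7 groups had 2 RNA-seq libraries of total RNA, 14 in all, with 26403984 to 35213154 counted reads each. The series speaks of a biological replicate, but no label says that the 2 libraries of a group came from separate cultures, so the p-values below reflect library-to-library spread, which may be technical.

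A replication origin is licensed in late mitosis and G1, when the origin recognition complex together with CDC6 and CDT1 places paired rings of MCM2 to MCM7 on the DNA. In S phase the kinases CDC7 and CDK2 set the loaded ring to work: CDC45 and the GINS complex join it, and MCM10 helps the finished helicase to unwind DNA. Many of these genes are known targets of the E2F factors, so their mRNAs are low in resting cells and high in cycling ones. Geminin, proteolysis of CDT1 and cyclin-dependent kinases keep an origin from being licensed again within the same S phase.

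PA exposure was followed by a lower level of 6 of the 10 mRNAs at 12 h and of 7 at 24 h, and none was called in either direction at 3 h (edgeR quasi-likelihood test, Benjamini-Hochberg adjusted p under 0.05 over all 15181 genes). Among all tested genes 24.1% were called lower at 12 h and 27.5% at 24 h, so falling was common in these libraries. MCM10 fell the most of the 10, to 19.7% of its DMSO level at 24 h, and MCM3, MCM4, MCM6, CDC6 and GINS2 fell at both times. MCM5 was called lower only at 24 h and by 1.36-fold. MCM2, MCM7 and CDT1 were not called at any time on TMM-normalised counts. After the correction for GC content and length described below, they were called lower at 12 and 24 h. The median log2 change of the 10 was -0.73 at 12 h and -1.10 at 24 h, against 0.01 and -0.01 over all tested genes. Fewer cells in a phase of the cycle that makes these mRNAs and less of the mRNA per cell cannot be told apart in bulk RNA.

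The keratins KRT8, KRT18 and KRT19 were abundant in every library, and KRT7 and EPCAM were low. CPM are read counts scaled to library size. For KRT8 to CD14 in this paragraph that size was all counted reads. For the other genes, here and below, it was the TMM-normalised library size. KRT8 and KRT18 lay at 2460 to 8910 and 2250 to 5650 CPM, and KRT19 at 537 to 2960 CPM. KRT7 lay at 6.69 to 17.6 CPM and EPCAM at 3.48 to 6.43 CPM. CDKN2A, which PANC-1 is known to have lost, reached 0.108 CPM at most. The leukocyte marker PTPRC stayed at or under 0.15 CPM, the fibroblast marker COL1A2 at or under 0.0586 CPM and the endothelial marker PECAM1 at or under 0.326 CPM, whereas COL1A1 (8.66 to 29.5 CPM), CD68 (33.9 to 67.7 CPM) and CD14 (0.752 to 4.46 CPM) were present. Of 3 reference genes, MKI67, a marker of cycling cells, had a log2 change of -2.40 at 24 h, and GAPDH, a glycolytic enzyme, one of 1.53. CDKN1A, the inhibitor p21, had one of 2.40, but both CDKN1A and MKI67 also fell in DMSO itself from 0 to 24 h. The mean of CDKN1A went from 53 CPM to 19.4 CPM (log2 change -1.45, adjusted p = 0.000836), and PA at 24 h lay 0.95 above DMSO at 0 h. The mean of MKI67 went from 1260 CPM to 802 CPM (log2 change -0.65, adjusted p = 0.0415). For MKI67, PA at 24 h against DMSO at 0 h gave a log2 change of -3.05.

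The promoters of the genes are shown first, since shared control by E2F is what the group is known for and since they moved unequally. RefSeq windows from 250 bases before to 50 bases after the start site were available for 8 of the 10 genes (GRCh38.p14); MCM4 and MCM5 had no entry. The words searched on both strands were TTTCCCGC, TTTGGCGC, TTTCGCGC and TTTGCCGC for E2F and CCAAT for the CCAAT box that NF-Y binds. Below, capitals mark these words on either strand (CCAAT reads ATTGG on the other strand, and neighbouring words may overlap into 1 run). The first 4 windows belong to genes that fell at 12 and 24 h, and the last 2 to genes that were not called. MCM10 lies at chr10:13161308-13161607 (+ strand), CDC6 at chr17:40287629-40287928 (+), MCM3 at chr6:52284693-52284992 (-), MCM6 at chr2:135876394-135876693 (-), MCM2 at chr3:127598161-127598460 (+) and MCM7 at chr7:100101348-100101647 (-, the one farthest upstream of 3 windows listed for this gene). All are written 5′ to 3′ on the gene's strand.
MCM10: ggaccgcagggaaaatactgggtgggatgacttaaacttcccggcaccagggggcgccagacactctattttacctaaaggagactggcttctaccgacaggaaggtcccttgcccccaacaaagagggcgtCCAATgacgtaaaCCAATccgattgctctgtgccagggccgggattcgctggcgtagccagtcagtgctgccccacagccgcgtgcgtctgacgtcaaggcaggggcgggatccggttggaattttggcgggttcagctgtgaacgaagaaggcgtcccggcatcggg
CDC6: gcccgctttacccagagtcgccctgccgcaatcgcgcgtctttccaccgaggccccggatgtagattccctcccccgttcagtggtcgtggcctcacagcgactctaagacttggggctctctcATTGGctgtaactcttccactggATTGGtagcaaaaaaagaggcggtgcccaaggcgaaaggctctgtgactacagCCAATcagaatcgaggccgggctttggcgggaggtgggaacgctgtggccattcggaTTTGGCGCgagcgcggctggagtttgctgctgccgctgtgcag
MCM3: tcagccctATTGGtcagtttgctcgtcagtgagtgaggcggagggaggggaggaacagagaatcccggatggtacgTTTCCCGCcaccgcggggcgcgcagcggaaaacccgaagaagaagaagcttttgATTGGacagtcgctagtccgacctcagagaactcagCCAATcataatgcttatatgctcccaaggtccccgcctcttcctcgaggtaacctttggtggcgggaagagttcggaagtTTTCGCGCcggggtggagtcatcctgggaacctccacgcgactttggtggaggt
MCM6: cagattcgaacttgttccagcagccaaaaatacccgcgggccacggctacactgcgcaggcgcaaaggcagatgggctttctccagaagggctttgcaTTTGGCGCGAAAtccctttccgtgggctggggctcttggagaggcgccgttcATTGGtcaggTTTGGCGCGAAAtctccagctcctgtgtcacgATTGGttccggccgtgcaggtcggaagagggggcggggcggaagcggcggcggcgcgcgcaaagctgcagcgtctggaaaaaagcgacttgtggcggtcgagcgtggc
MCM2: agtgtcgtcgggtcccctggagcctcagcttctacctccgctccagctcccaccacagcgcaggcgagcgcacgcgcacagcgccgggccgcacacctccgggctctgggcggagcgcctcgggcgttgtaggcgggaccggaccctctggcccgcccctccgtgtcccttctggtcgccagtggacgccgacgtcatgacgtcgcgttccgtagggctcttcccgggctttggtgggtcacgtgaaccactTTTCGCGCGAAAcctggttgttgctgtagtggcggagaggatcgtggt
MCM7: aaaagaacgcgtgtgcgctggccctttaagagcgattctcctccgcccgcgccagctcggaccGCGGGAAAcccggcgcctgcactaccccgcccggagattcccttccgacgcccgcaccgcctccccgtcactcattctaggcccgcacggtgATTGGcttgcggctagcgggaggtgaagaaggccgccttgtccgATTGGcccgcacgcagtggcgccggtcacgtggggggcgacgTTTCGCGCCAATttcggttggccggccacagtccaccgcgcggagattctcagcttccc

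An E2F word was found in 7 of the 8 windows, against 5.28% of the windows of 10046 tested genes and 3.34% of all 27305 windows. MCM10, which changed the most, had none of the E2F words searched. Only exact words were counted: the letters tttggcgg in the MCM10, CDC6 and CDT1 windows differ from TTTGGCGC in the last base and were left out. The search therefore does not show that MCM10 lacks an E2F site. In MCM6 the 2 runs TTTGGCGCGAAA hold overlapping words of both strands, and in MCM2 the run TTTCGCGCGAAA begins at base 3, counting the start site as base 1. MCM7 carries TTTCGCGCCAAT, in which an E2F word and a CCAAT box share bases, from 9 bases before the start site on. CCAAT boxes were present in 6 of 8 windows (not in MCM2 or CDT1), against 36.4% of the windows of tested genes: 3 each in MCM3, MCM7 and CDC6, 2 each in MCM6 and MCM10, and 1 in GINS2. The CHR words TTTGAA and TTCGAA, a cell cycle element, were in 1 window (MCM6), against 1101 of the 10046 windows of tested genes. A match describes letters only; the genes that fell and those that were not called both carry E2F words.

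MCM10, which binds the assembled helicase and helps origins to fire (chr10:13161554-13211104, + strand, GRCh38), had 49.0 and 42.8 CPM before exposure. The DMSO libraries held 45.7 and 45.3 CPM at 3 h, 60.5 and 55.2 CPM at 12 h, and 48.4 and 50.7 CPM at 24 h. With PA it had 34.6 and 40.8 CPM at 3 h, 15.1 and 22.9 CPM at 12 h, and 9.66 and 9.87 CPM at 24 h. PA libraries lay under their time-matched DMSO libraries at all 3 times, and the gap widened with time. The log2 change was -0.27 ± 0.174 (SE; adjusted p = 0.426) at 3 h, -1.60 ± 0.18 (adjusted p = 3.22e-05) at 12 h and -2.34 ± 0.187 (adjusted p = 2.13e-06) at 24 h, that is 3.04-fold and 5.07-fold lower at the later times. At 12 h the size rested in part on which PA library was used, from -1.93 to -1.33 when 1 library was left out.

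CDC6, the ATPase that brings MCM rings to the origin recognition complex (chr17:40287633-40304657, + strand), fell next to MCM10 in size at 12 h. It had 86.9 and 86.0 CPM in DMSO and 34.4 and 47.1 CPM with PA at 12 h, and 85.5 and 92.2 CPM against 35.5 and 35.9 CPM at 24 h. The groups did not overlap at either time, nor at 3 h, when the PA libraries held 56.7 and 61.0 CPM against 72.9 and 73.9 CPM. The log2 change was -0.32 ± 0.147 (adjusted p = 0.29) at 3 h, -1.09 ± 0.149 (adjusted p = 0.000132) at 12 h and -1.32 ± 0.15 (adjusted p = 2.08e-05) at 24 h. CDT1, its partner in MCM loading (chr16:88803213-88809258, + strand), did not follow it on TMM-normalised counts. CDT1 had 17.9 and 25.8 CPM in DMSO and 20.6 and 23.0 CPM with PA at 24 h, so the PA values lay inside the DMSO range. Its log2 change was -0.10 ± 0.183 at 12 h (adjusted p = 0.672, 95% interval -0.50 to 0.29), and at 24 h the interval was -0.40 to 0.39 (adjusted p = 0.986).

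The ring subunits split unevenly. MCM4 (chr8:47960185-47978160, + strand), part of the catalytic core of the ring, had 304 and 285 CPM in DMSO against 166 and 186 CPM with PA at 12 h, and 333 and 342 CPM against 120 and 118 CPM at 24 h. MCM3 (chr6:52264009-52284881, - strand) had 233 and 259 CPM against 152 and 143 CPM at 12 h, and 255 and 297 CPM against 112 and 107 CPM at 24 h. MCM6 (chr2:135839626-135876426, - strand), which pairs with MCM4 in the ring, had 98.6 and 93.0 CPM against 50.3 and 64.5 CPM at 12 h, and 122 and 120 CPM against 42.6 and 46.1 CPM at 24 h. In these 3 genes every PA library lay under every DMSO library of its time at 12 and 24 h. The log2 change at 12 h was -0.74 in each (SE 0.115 to 0.141, adjusted p = 0.000289 for MCM4, 0.000518 for MCM3 and 0.0011 for MCM6). After the correction for GC content and length described below it was -0.97 for MCM3, -0.76 for MCM4 and -0.33 for MCM6 (adjusted p = 0.0159), so the equal size held for TMM-normalised counts alone. At 24 h it was -1.50 ± 0.117 for MCM4, -1.44 ± 0.143 for MCM6 and -1.33 ± 0.127 for MCM3 (adjusted p = 2.01e-06, 7.42e-06 and 6.05e-06), which is 2.83-fold, 2.72-fold and 2.51-fold lower.

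MCM2 (chr3:127598223-127622436, + strand), MCM5 (chr22:35400063-35425430, + strand) and MCM7 (chr7:100092728-100101940, - strand) stayed near their DMSO levels by comparison. MCM2 had 166 and 197 CPM in DMSO and 165 and 182 CPM with PA at 24 h, and MCM7 had 167 and 181 CPM against 142 and 169 CPM. These ranges overlap, and the 95% intervals of the log2 change at 24 h were -0.40 to 0.26 for MCM2 and -0.53 to 0.21 for MCM7 (adjusted p = 0.73 and 0.465). On these TMM-normalised counts both intervals leave out a change of the size seen in MCM3, MCM4 or MCM6. After the correction for GC content and length described below, the 24 h changes were -0.59 for MCM2 and -0.70 for MCM7, against -0.98 for MCM6. At 12 h the 2 PA libraries differed from each other in both genes: MCM2 had 186 and 142 CPM, and MCM7 had 187 and 130 CPM, around DMSO values of 144 and 142 and of 134 and 146 CPM. Without the second PA library of 12 h both were called higher there, MCM2 by 0.38 (adjusted p = 0.042) and MCM7 by 0.42 (adjusted p = 0.0321).

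MCM5, which forms the gate of the ring with MCM2, had 95.2 and 106 CPM in DMSO and 68.4 and 79.6 CPM with PA at 24 h. The groups did not overlap, and the log2 change was -0.44 ± 0.15 (adjusted p = 0.0222). This call was lost without the second DMSO library of 24 h (-0.37, adjusted p = 0.137) or without the first PA library (-0.34, adjusted p = 0.152). At 12 h MCM5 had 79.9 and 82.9 CPM against 93.6 and 78.8 CPM, with a 95% interval of -0.24 to 0.40. GINS2 (chr16:85676198-85690073, - strand), a subunit of the GINS complex that rides with the unwinding ring, had lower CPM with PA at 12 and 24 h than with DMSO. It had 12.0 and 12.7 CPM against 7.52 and 7.46 CPM at 12 h (log2 change -0.72 ± 0.156, adjusted p = 0.0023), and 13.1 and 15.2 CPM against 7.58 and 7.70 CPM at 24 h (-0.89 ± 0.156, adjusted p = 0.000398). The plot of levels by time shows the 10 courses.

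**Figure D1:**
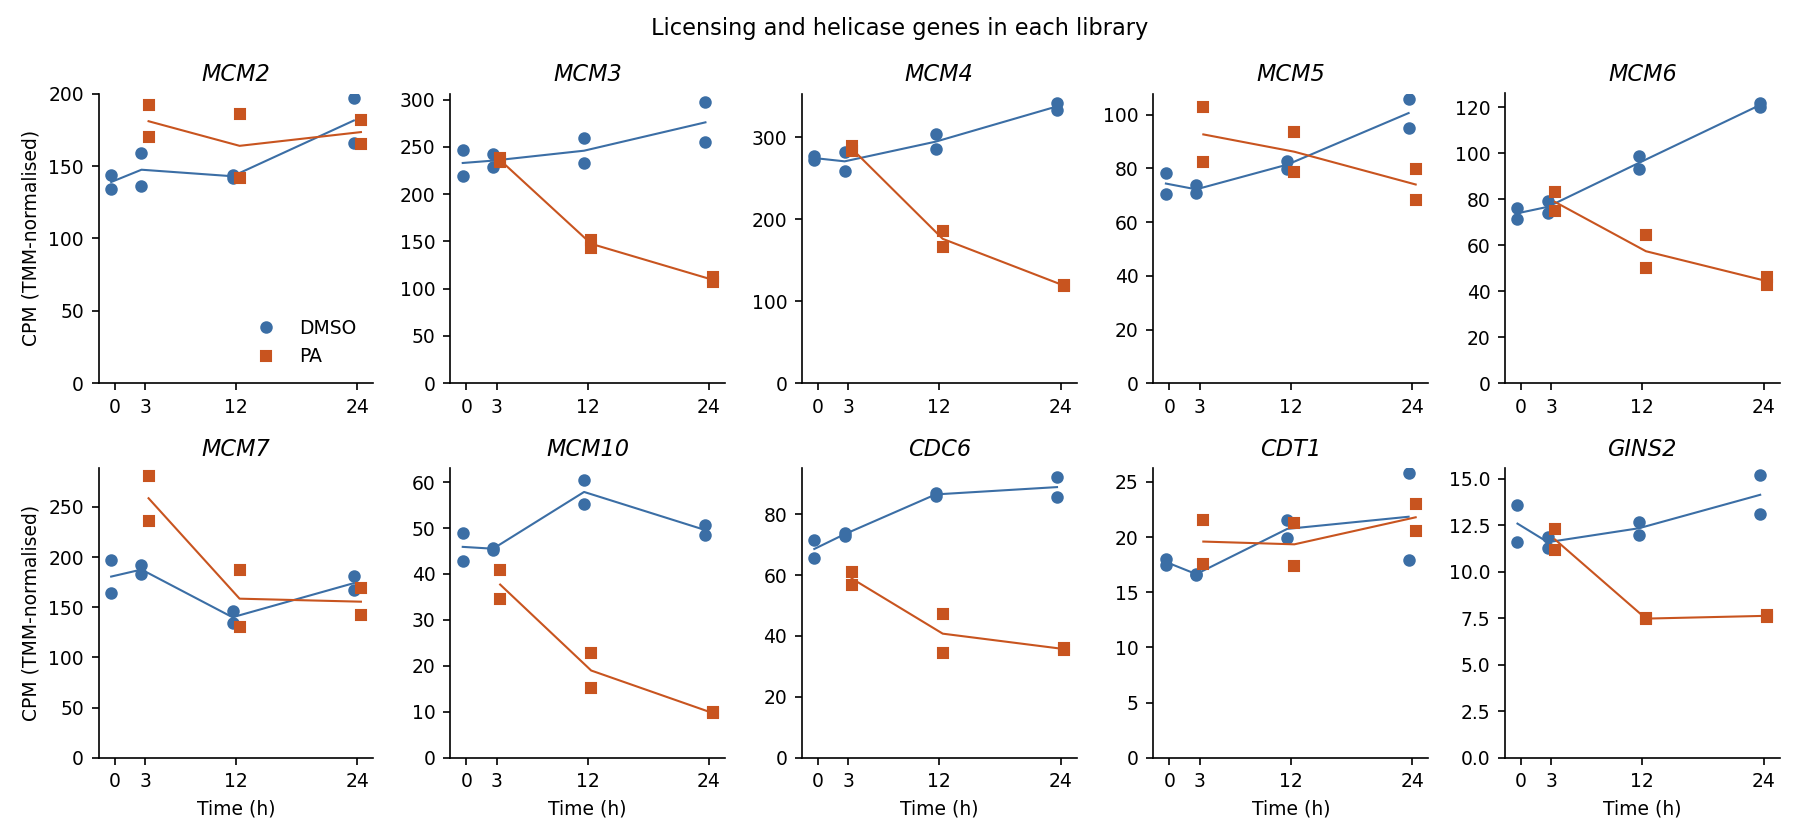
Level of each of the 10 genes in each of the 14 libraries (TMM-normalised CPM, linear axes from 0) against time in hours; points are libraries, lines join group means. MCM3, MCM4, MCM6, MCM10, CDC6 and GINS2 separate from DMSO at 12 and 24 h, whereas the PA and DMSO points of MCM2, MCM7 and CDT1 overlap at 24 h.

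At 3 h no member passed the threshold, against 1.58% of all tested genes called lower and 0.138% called higher. edgeR gave 3 members an unadjusted p under 0.05 (CDC6, MCM5 and MCM7), as it did 2600 of all genes, and DESeq2 and limma on RPKM values also called 0 members. The PA libraries lay below both DMSO libraries for MCM10 and CDC6 and above them for 5 members. Such separation was common at that time: 27.9% of all genes lay below and 26.7% above. MCM7, the member with the highest change at 3 h, had 281 and 236 CPM with PA and 183 and 192 CPM in DMSO (log2 change 0.46 ± 0.172, adjusted p = 0.215). It was called higher without either PA library of 12 h, but with an almost unchanged value of 0.47. In those fits more genes were called in both directions over all genes, so the call rested on the shared estimate of spread. By contrast, at 12 h the libraries of 6 members lay wholly below DMSO, with 37.8% of all genes, and at 24 h those of 7 members, with 40.0%. No member was called higher at 12 or 24 h, where 24.4% and 27.2% of all genes were.

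Whether the PA effect differed between times was tested directly. From 3 to 24 h the effect became lower for 7 members (MCM3, MCM4, MCM5, MCM6, MCM10, CDC6 and GINS2), where 6.20% of all genes did. The difference was -2.07 ± 0.252 on the log2 scale for MCM10 (adjusted p = 0.000506) and -1.58 ± 0.162 for MCM4 (adjusted p = 0.00015). From 3 to 12 h it became lower for 3 members, MCM3, MCM4 and MCM10, with 0.685% of all genes, but 4 single libraries each took all 3 calls away (the first DMSO and the second PA library of 3 h, and either DMSO library of 12 h). From 12 to 24 h no member passed in edgeR, with 0.158% of all genes called lower; 5 members had an unadjusted p under 0.05, DESeq2 called 1 and limma on RPKM values 2.

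The DMSO cultures also changed over the day. From 0 to 3 h edgeR, DESeq2 and limma on RPKM values called 0 members, and 0 had an unadjusted p under 0.05. MCM6 rose in DMSO by 0.71 ± 0.141 on the log2 scale from 0 to 24 h (adjusted p = 0.0174), from 76.4 and 71.4 to 122 and 120 CPM, and was the only member called higher, with 0.527% of all genes. That call was lost without any single one of its 4 libraries (adjusted p = 0.101 to 0.223). At 24 h the DMSO libraries of 6 members lay wholly above those of 0 h, where 27.7% of all genes did. The same count held at 12 h against 30.0% of genes, but there edgeR, DESeq2 and limma on RPKM values called 0 members, 2 had an unadjusted p under 0.05, and 0.323% of all genes were called higher.

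The PA libraries were also compared among themselves. Between 3 and 12 h of PA, 7 members fell (7.36% of all genes called lower): the 6 named above and MCM7, which came down from its 3 h values by 0.71 ± 0.173 on the log2 scale (adjusted p = 0.0152). Without a PA library of 3 h only 2 or 3 of these calls were left. The MCM6 call (-0.46, adjusted p = 0.0422) was lost in 13 of the 14 fits that left out a library, with changes of -0.53 to -0.29, and the CDC6 call (-0.53) in 3, with changes of -0.58 to -0.32. Between 12 and 24 h MCM3, MCM4 and MCM10 fell further (7.71% of all genes), with MCM10 at -0.96 ± 0.183 (adjusted p = 0.00535) and MCM3 near the threshold (adjusted p = 0.0388, lost in 12 of 14 fits that left out a library). At the end of the PA series 6 members lay below the untreated start (28.1% of all genes). MCM10 was lower by -2.23 ± 0.186, MCM4 by -1.20 ± 0.116, MCM3 by -1.09 ± 0.126, CDC6 by -0.94 ± 0.149, MCM6 by -0.74 ± 0.142 and GINS2 by -0.72 ± 0.156. The same contrast gave -0.01 ± 0.149 for MCM5 (adjusted p = 0.966). On TMM-normalised counts its lower value at 24 h thus held against the DMSO libraries of 24 h but not against those of 0 h. After the correction for GC content and length described below, the contrast with 0 h gave -0.34 ± 0.101 for MCM5 (adjusted p = 0.00959).

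The members that fell at both 12 and 24 h had transcripts of lower GC content than MCM2, MCM5, MCM7 and CDT1. A trend with GC content was also seen over all tested genes. For each tested gene, its mean log2 CPM over the 14 libraries was subtracted from its log2 CPM in each library. The slope of this deviation on GC content was -0.319 to -0.062 per 10 GC percentage points in the 8 DMSO libraries. In the 6 PA libraries it was 0.028 to 0.578. The signs are thus relative to the mean of all libraries and do not describe log2 CPM itself. At 12 h the 2 PA libraries had slopes of 0.578 and 0.124. At 24 h the median log2 change was -0.82 for genes whose longest transcript was under 42% GC and 0.78 for those above 60%. MCM6 (43.1% GC), MCM10 (43.3%), CDC6 (45.5%), MCM4 (48.5%), GINS2 (49.1%) and MCM3 (51.6%) are the members that fell at 12 and 24 h, while MCM5 (56.6%), MCM7 (57.6%), MCM2 (58.1%) and CDT1 (64.9%) are richer in GC. Among genes of 55 to 60% GC only 6.74% were called lower at 24 h, and above 60% only 3.58%. Whether the trend with GC content arose in the cells or in library making was not tested.

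**Figure D2:**
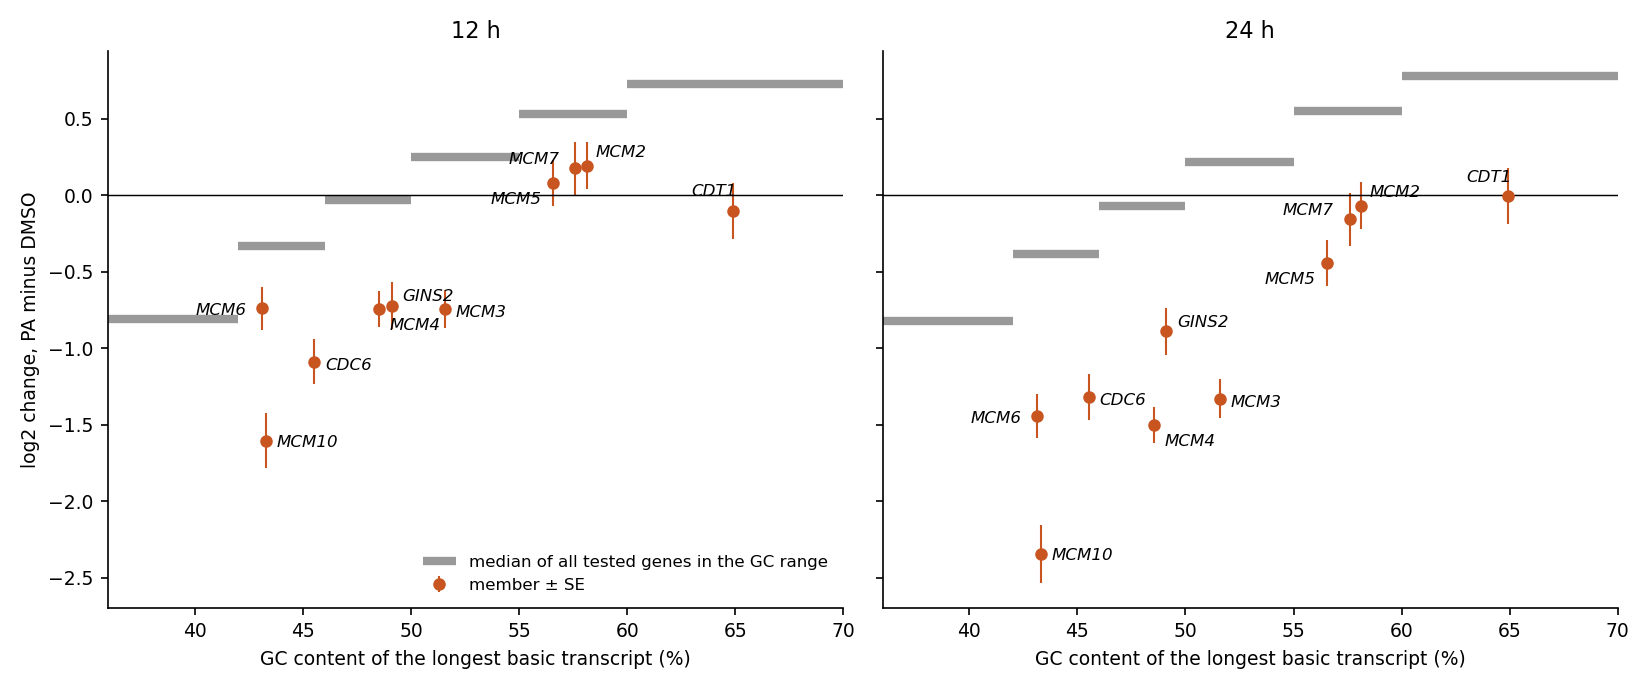
Log2 change (PA minus DMSO) of the 10 genes with standard errors, against GC content of the longest transcript in percent, at 12 h and 24 h; grey bars are medians of all tested genes in each GC range (the last range is drawn to 70%). All 10 genes lie under the bar of their range at both times, with differences of -0.33 to -1.27 at 12 h and of -0.62 to -1.96 at 24 h.

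Set against genes of like GC content, all 10 members lay on the low side. Each was under the median of its GC range at 12 h, by -0.33 (MCM2) to -1.27 (MCM10), and at 24 h, by -0.62 (MCM2) to -1.96 (MCM10), whereas at 3 h only 3 were. A fit in which each library's trend with GC content and transcript length was removed called 10 of 10 members lower at 12 h (20.5% of 15071 genes) and 10 of 10 at 24 h (24.7%), and 0 at 3 h (3.01% of genes, with 2 members at an unadjusted p under 0.05). The median log2 change was then -0.81 at 12 h and -0.98 at 24 h. At 24 h CDT1 stood at -0.80 ± 0.142 (adjusted p = 0.000257), MCM7 at -0.70 ± 0.103 (adjusted p = 4.57e-05) and MCM2 at -0.59 ± 0.092 (adjusted p = 8.77e-05). The change of MCM6 went from -1.44 to -0.98, that of MCM10 from -2.34 to -1.85, and that of MCM3 from -1.33 to -1.49. That MCM2, MCM7 and CDT1 did not pass holds for TMM-normalised counts and not after this correction. MCM2 and MCM7 also passed at 24 h on the log2(RPKM + 1) scale, by -0.38 (adjusted p = 0.0241) and -0.47 (adjusted p = 0.0157). On that scale the typical gene lay 0.298 lower than with TMM, and 32.7% of the calls were higher, against 49.7%. In the corrected fit 5 members were also called higher in DMSO at 24 h than at 0 h (3.05% of genes). MCM2 was among them, with a rise of 0.49 ± 0.092 (adjusted p = 0.00399). Against DMSO at 0 h, MCM2 with PA at 24 h lay at -0.10 ± 0.0919 (adjusted p = 0.373) in that fit. In that contrast 9 members were called lower (27.8% of genes).

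**Figure D3:**
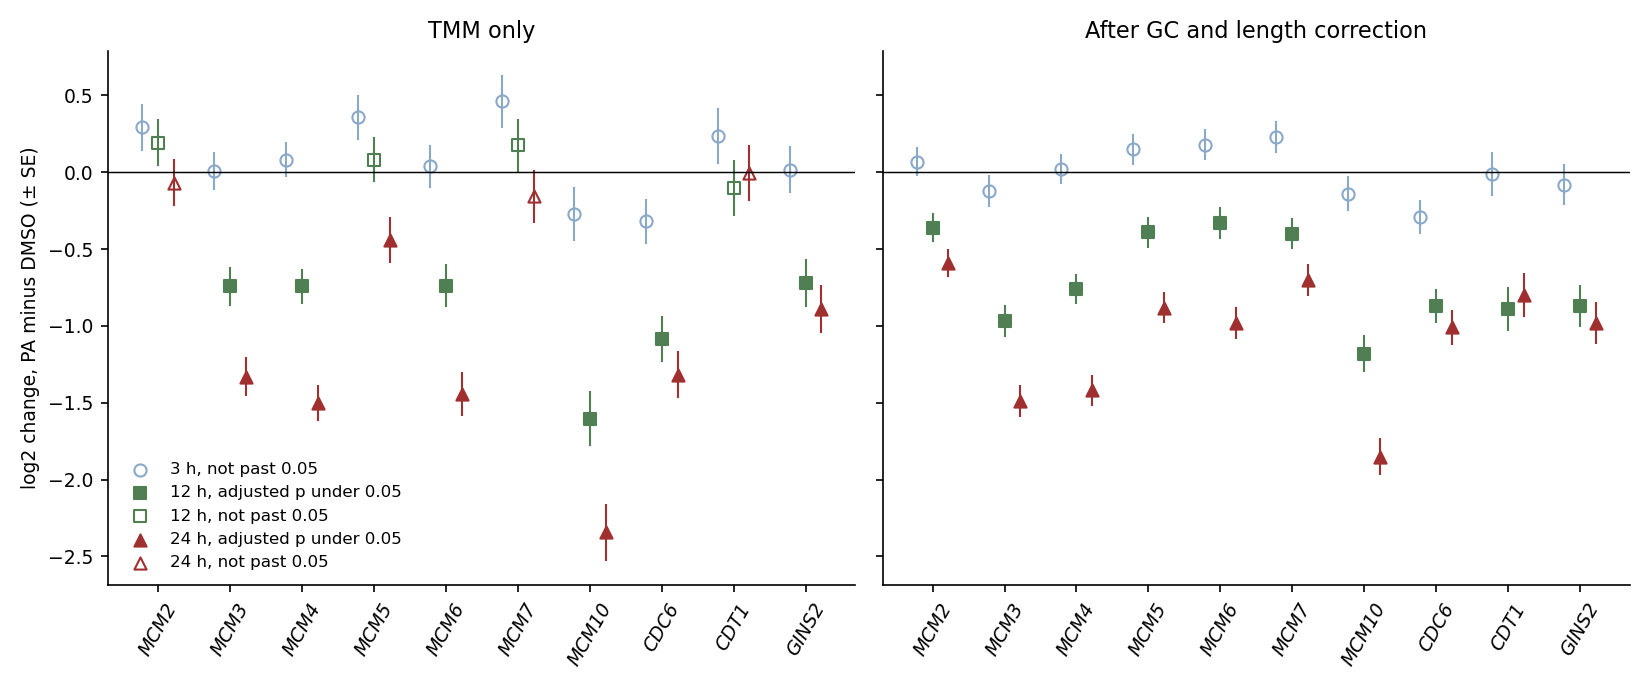
Log2 change (PA minus DMSO, bars are standard errors) of the 10 genes at 3, 12 and 24 h with TMM normalisation alone (left) and after removing each library's trend with GC content and transcript length (right); filled symbols have an adjusted p under 0.05. MCM2, MCM7 and CDT1 are open at every time on the left and filled at 12 and 24 h on the right.

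Per length, the 6 ring subunits were not equally abundant. In DMSO at 24 h the deposited RPKM values were 83.2 ± 7.82 for MCM3, 77.6 ± 0.488 for MCM4, 48.6 ± 5.39 for MCM2, 45.9 ± 2.04 for MCM7, 31.4 ± 0.771 for MCM6 and 27.6 ± 1.68 for MCM5 (mean ± SD, n = 2). Of the neighbours in this order, MCM3 and MCM4, and MCM2 and MCM7, did not differ beyond their spread. With PA at 24 h the order was MCM2 at 37.2 ± 3.17, MCM7 at 33.0 ± 4.65, MCM3 at 26.6 ± 0.417, MCM4 at 21.9 ± 0.0424, MCM5 at 16.3 ± 2 and MCM6 at 9.23 ± 0.665, where again MCM2 and MCM7 did not differ beyond their spread. Among the other members, CDC6 went from 17.9 ± 0.75 to 5.76 ± 0.12 RPKM, MCM10 from 10.4 ± 0.198 to 1.64 ± 0.0495, CDT1 from 6.52 ± 1.57 to 5.16 ± 0.474 and GINS2 from 5.14 ± 0.46 to 2.22 ± 0.0636. On the TMM scale the CDT1 means at 24 h were 21.9 CPM in DMSO and 21.8 CPM with PA.

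The sum of the 6 subunits was 259 and 253 RPKM in DMSO and 309 and 285 RPKM with PA at 3 h, where it lay higher with PA. It was 302 and 326 RPKM in DMSO at 24 h and 137 and 151 RPKM with PA. Over all genes, the log2 change at 24 h on log2(RPKM + 1) differed from that with TMM by a median of -0.298. The fall of the sum includes this difference in scaling. Within that sum, MCM3 and MCM4 gave way to MCM2 and MCM7. MCM3 made up 26.4% of it in DMSO and 18.5% with PA (means of 2 libraries), and MCM4 24.7% and 15.3%. MCM2 went from 15.4% to 25.8% and MCM7 from 14.6% to 22.8%. The GC-poor MCM6 made up 10.0% and 6.4%. These shares carry the trend with GC content described above, and they describe mRNA, not protein.

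**Figure D4:**
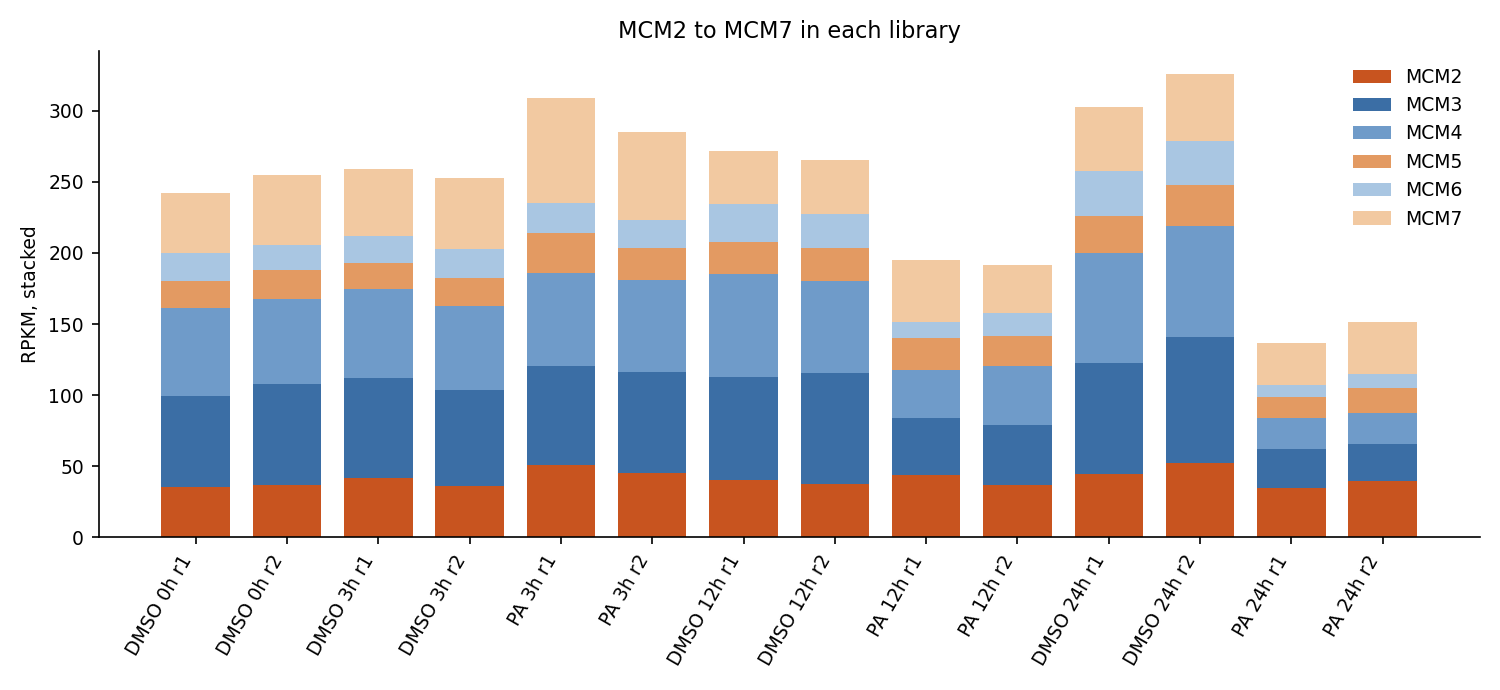
Deposited RPKM of MCM2 to MCM7 stacked for each of the 14 libraries (r1 and r2 are the replicates). The sum is 242 to 326 RPKM in the DMSO libraries, 309 and 285 with PA at 3 h, 191 and 195 with PA at 12 h and 137 and 151 at 24 h, and the blue segments (MCM3, MCM4, MCM6) shrink more than the orange ones (MCM2, MCM5, MCM7).

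Across the 14 libraries the 6 members that fell at both times ran together. Their pairwise Pearson correlations of log2 CPM were 0.87 to 0.98 over 15 pairs, with MCM3 and MCM4 at 0.98 and MCM10 and MCM4 at 0.97. MCM2, MCM5, MCM7 and CDT1 were correlated at 0.02 to 0.69 with each other and at -0.38 to 0.48 with the 6. The split was made after seeing the values, and the points share libraries, treatment and the GC trend, so these are descriptions. The genes outside the group with the profile most like the mean of the 10 were RFC5 (r = 0.952), RPA2 (0.935), HAUS8 (0.93), CHAF1B (0.923) and UNG (0.923). MCM10 was closest to MIS18A (0.991) and TAF5 (0.99), MCM3 to CHAF1B (0.989) and FEN1 (0.982), MCM4 to NCAPH (0.982) and GINS1 (0.981), MCM6 to DSN1 (0.97) and PCNA (0.966), CDC6 to FAM111A (0.988) and GINS2 to RPA2 (0.955). The closest profiles of the other members were less alike, with LRRC45 at 0.904 for MCM2, DPF1 at 0.923 for MCM7, TOR3A at 0.836 for CDT1 and RPA1 at 0.783 for MCM5.

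The proteins that work before and after the ring is loaded were examined through 5 lists of 34 genes, of which 33 were tested; CDK2 was not analysed here. Of the 33, 26 were called lower and 1 higher at 12 h, with a median log2 change of -0.87, and 27 lower and 1 higher at 24 h, with a median of -1.18. At 3 h edgeR called 0 of them, 5 had an unadjusted p under 0.05, and DESeq2 called 1. With no filter, or in a fit of the 4 libraries of 3 h alone, edgeR called 5 lower at 3 h. Across the other settings 5 to 27 were called lower at 12 h and 12 to 30 at 24 h. For all genes, the shares called lower at 12 and 24 h are those given above. However, the lists were poor in GC, with medians of 41.8% for origin recognition, 44.3% for helicase activation, 42.1% for licensing control and 42.2% for other MCM proteins. The G1/S regulators had 52.3%. Of all genes at 42 to 46% GC, 35% were called lower at 12 h and 40.8% at 24 h. Under 42% GC the shares were 57.7% and 57.8%. Of the origin recognition complex, 5 of 7 genes fell at both times: at 24 h ORC6 changed by -1.23 ± 0.165, ORC2 by -1.05 ± 0.196, ORC5 by -1.08 ± 0.228 and ORC3 by -1.48 ± 0.322. ORC4 and LRWD1, which binds the complex, did not pass (-0.05 and 0.04 at 24 h).

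Genes that turn the loaded ring into a helicase fell in 11 of 13 cases at 12 h and 12 of 13 at 24 h. At 24 h GINS1 changed by -1.55 ± 0.148, DONSON, which helps to bring GINS to the ring, by -1.18 ± 0.134, TICRR, which brings CDC45 to it, by -1.40 ± 0.162, and the kinase CDC7 by -2.48 ± 0.288. RECQL4 did not pass at either time (0.18 and -0.36), and CDC45, which joins the ring, did not pass at 12 h (-0.29, adjusted p = 0.168) but did at 24 h (-0.88 ± 0.166). Genes that limit licensing moved too. At 24 h the change was -1.15 ± 0.162 for GMNN, the CDT1 inhibitor geminin, -1.51 ± 0.147 for DTL and -1.81 ± 0.234 for SKP2, both substrate receptors of ubiquitin ligases that act on CDT1, and -2.58 ± 0.384 for FBXO5, an inhibitor of the anaphase-promoting complex. DDB1, the adaptor that links DTL to its ligase, was higher by 0.68 ± 0.155 (adjusted p = 0.00246) and was picked out after its value was seen. CUL4A, the scaffold of that ligase, did not pass at 12 or 24 h (-0.12 and -0.05). Of the 6 genes of this list, 4 were lower and 1 higher at both times.

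The related proteins MCM8 and MCM9, which act in recombination, and MCMBP, a binding protein of the ring subunits, fell at both times. At 24 h MCM8 changed by -2.49 ± 0.312, MCM9 by -1.36 ± 0.198 and MCMBP by -0.68 ± 0.131. Of the G1/S regulators, 3 of 4 fell at both times. CCNE2, a cyclin partner of CDK2, changed by -3.02 ± 0.387 at 24 h, CCNE1 by -0.99 ± 0.146 and the phosphatase CDC25A by -1.30 ± 0.183. E2F1 itself gave -0.15 ± 0.178 at 12 h (adjusted p = 0.496) and -0.14 ± 0.177 at 24 h (adjusted p = 0.533). After the GC and length correction at 24 h, 6 of 7 origin recognition genes were lower and 1 higher, and 13 of 13 activation genes lower. Of the control genes 4 of 6 were lower and 2 higher, of the related MCM genes 2 of 3 lower and of the G1/S regulators 4 of 4 lower. Of all genes in that fit, 24.7% were lower and 24.3% higher. The median log2 changes of the lists, in this order, were then -0.69, -1.18, -0.91, -1.01 and -1.38. Without the correction they were -1.05, -1.40, -1.33, -1.36 and -1.15.

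**Figure D5:**
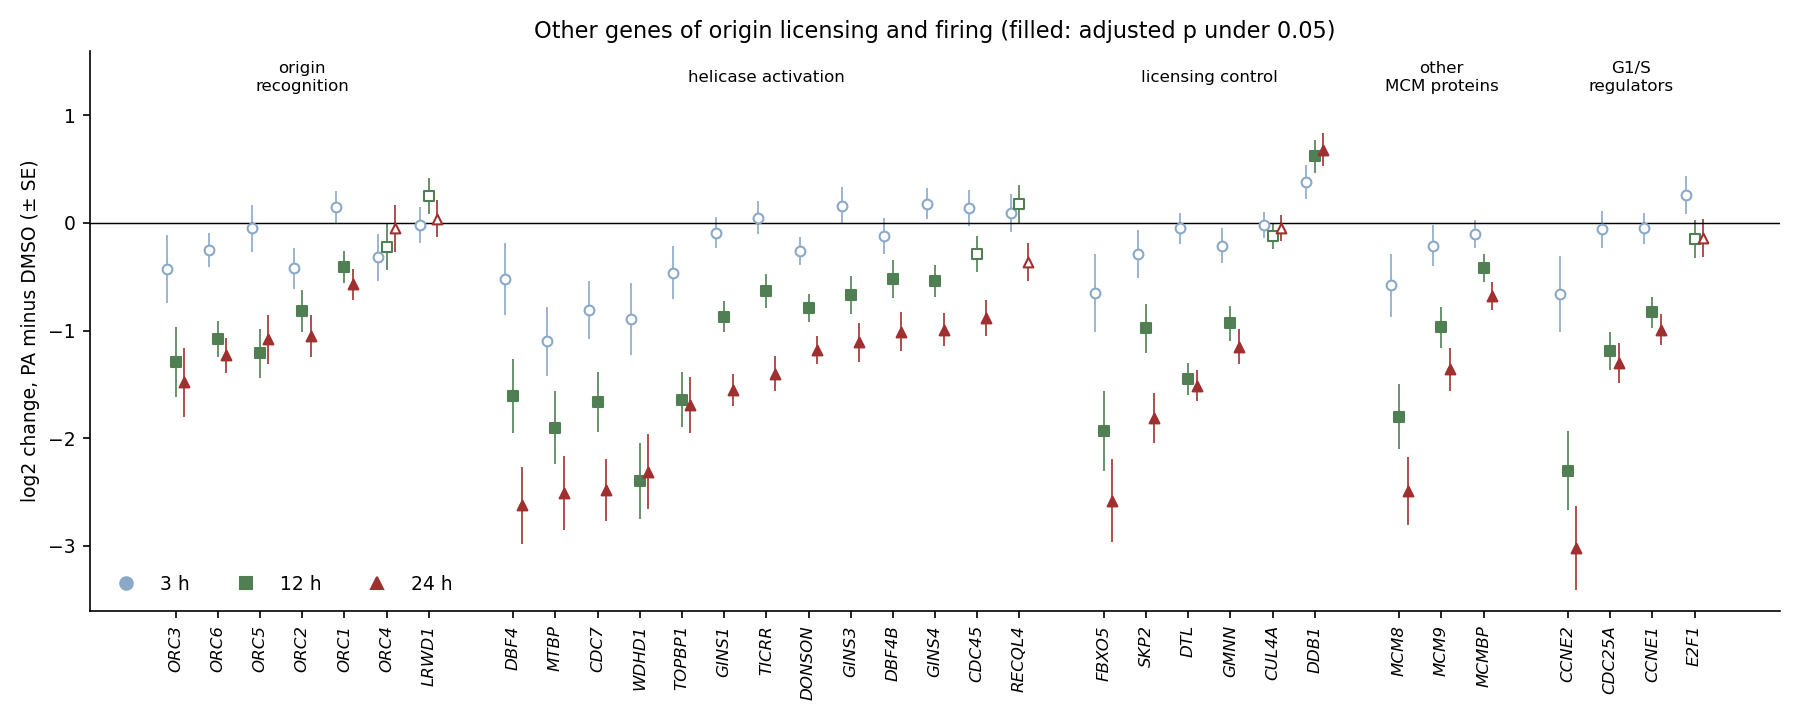
Log2 change (PA minus DMSO, bars are standard errors) at 3, 12 and 24 h of the 33 other tested genes of licensing and firing, by list; filled symbols have an adjusted p under 0.05. No gene is filled at 3 h, 26 are filled below 0 at 12 h and 27 at 24 h, and DDB1 is the one filled above 0 at 12 and 24 h.

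Some of the reads counted for these genes could come from neighbours. In GENCODE 29, MCM2 shares 1113 of its 4902 exonic bases with an antisense RNA (AC023593.1) and 45 with TPRA1, both on the other strand, MCM7 shares 392 of 4386 with AP4M1, and GINS2 shares 7 bases with GSE1. The sources used here do not say whether strand was used in counting, so reads of these pairs cannot be told apart where they overlap. MCM7 also hosts the miRNAs MIR25, MIR93 and MIR106B, which share 0 bases with its exons.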

How the data were processed

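Total RNA of PANC-1 cells was sequenced as 151 nt read pairs, per the labels' protocols. TopHat2, edgeR and GRCh38 are named in the submitters' processing notes. For the counting tool, annotation release and strand setting, the entry is: not given in the sources used here. The authors deposited whole-number read counts per gene (28120 genes) and RPKM values per gene (25447 genes), both for all 14 libraries. Members, lists and tests were chosen with earlier results of these data known.

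The counts were fitted in edgeR 4.0.16 (R 4.3.3) with TMM normalisation, filterByExpr (15181 genes, at least 99.953% of reads), 1 mean for each of 7 groups and 7 residual degrees of freedom. Two-sided quasi-likelihood tests were adjusted by Benjamini-Hochberg over all tested genes, with a threshold of 0.05. The biological coefficient of variation was 15.1%. Printed CPM levels use TMM library sizes, except those of the cell type markers, which use all counted reads. Intervals are at 95%. Scripts were tested on simulated data.

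No pairing of libraries by replicate number was seen: over 21 pairs of groups, 2 correlations of same-numbered deviations were over 0.1 (range -0.22 to 0.24). With 2 libraries a group, this cannot show that same-numbered libraries were handled apart. Alternatives were DESeq2 (1.42.0), its size factors in edgeR, a 5 CPM minimum in 2 libraries, no filter, the replicate block, the GC and length correction (natural splines with 5 degrees of freedom; GENCODE 29 longest basic transcript), both together, the 4 libraries of a contrast alone, a 2-fold minimum change (glmTreat), limma (3.58.1) on log2(RPKM + 1) and log2(RPKM + 0.1) for genes of RPKM 1 or more in 2 libraries, and leaving out each library. A value counts as reversed where its sign changed and either fit called it. The 10 members are always named. From each list up to 4 called genes of smallest p are named, plus all genes that did not pass at 24 h and CDC45, which did not pass at 12 h. Likeness is Pearson's r of log2 CPM with genes of at least 2 CPM on average, of which 5 were found per profile.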

Additional observations from a re-analysis of the deposited data

Results flagged for a closer look

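The PA effect on some members differed between time points by a direct test of the difference in the edgeR fit (adjusted over all tested genes). Between 3 h and 24 h the log2 change became lower by -1.34 for MCM3 (adjusted p = 0.000854), -1.58 for MCM4 (0.00015), -0.80 for MCM5 (0.0248), -1.48 for MCM6 (0.000898), -2.07 for MCM10 (0.000506), -1 for CDC6 (0.00912) and -0.91 for GINS2 (0.0168). The MCM5 difference was lost in 5 and the GINS2 difference in 3 of the 14 fits that left out a library. Between 3 h and 12 h it became lower by -0.75 for MCM3 (adjusted p = 0.0401), -0.82 for MCM4 (0.0195) and -1.33 for MCM10 (0.0159), and these were lost in 11, 5 and 4 of the 14 fits. No group has more than 2 libraries, so single libraries were not compared with the rest of their group.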

How the results depend on the processing

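The counts of members called lower at 12 h (6) and 24 h (7) were within 1.5 times of these under DESeq2, its size factors, both filters, the replicate block, the 4 libraries alone and both RPKM scales. Exceptions were the GC and length correction (10 at 12 h, with or without the block) and a 2-fold minimum change (1 at 12 h and 4 at 24 h). At 12 h the corrected changes of MCM2 (-0.36), MCM5 (-0.39) and MCM7 (-0.40) were negative and called, with the same values when the block was added. The corrected change of CDT1 from DMSO 0 h to PA 24 h was -0.46 with and without the block. The cause was not tested.

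For the difference between the effects at 12 h and 3 h (3 members), the count was 6 in DESeq2, 5 with no filter, 2 with the replicate block, 9 corrected, 8 with both, 0 at 2-fold, 6 on log2(RPKM + 1) and 5 on log2(RPKM + 0.1). Between 24 h and 12 h (0 members) it was 1 in DESeq2, with no filter and at 5 CPM, and 2 corrected, with both and on both RPKM scales. Between 24 h and 3 h (7) it was 1 at 2-fold. For DMSO from 0 to 24 h (1 higher) it was 5 corrected, 5 with both and 0 at 2-fold. For PA from 3 to 12 h (7) it was 0 at 2-fold, and from 12 to 24 h (3) it was 2 with DESeq2 size factors, no filter or the block, 0 at 2-fold and 5 on both RPKM scales. From DMSO 0 h to PA 24 h (6) it was 9 corrected, 9 with both and 1 at 2-fold. The shares of all genes called also differed by setting. Corrected and in the main fit, 2.97% and 0.685% were lower for 12 h minus 3 h, and 0.816% and 0.158% for 24 h minus 12 h. In DMSO from 0 to 24 h 3.05% and 0.527% were higher, and from DMSO 0 h to PA 24 h 27.8% and 28.1% were lower. Across the other settings 18 to 2393 genes were lower for 24 h minus 3 h. For PA from 3 to 12 h 4 to 2007 were, and from 12 to 24 h 0 to 2365. No other count of members moved by over 1.5 times under the block, and the libraries share only a number.

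Leaving out single libraries gave these ranges of members called: 0 to 1 higher at 3 h, 6 to 6 lower and 0 to 2 higher at 12 h, 6 to 7 lower at 24 h, 0 to 6 between 12 h and 3 h, 0 to 3 between 24 h and 12 h, 5 to 8 between 24 h and 3 h, 0 to 1 higher in DMSO at 24 h, 2 to 7 and 2 to 4 for the PA steps to 12 and 24 h, and 0 to 1 higher (MCM2) from DMSO 0 h to PA 24 h. Counts over all genes moved too: at 3 h 240 were called lower (24 to 939 under other settings, 27 to 1082 without a library) and 21 higher (0 to 256, and 0 to 470), and for 12 h minus 3 h 104 were called lower (0 to 941, and 5 to 2636). A group left with 1 library is assumed to vary like the others. With 2 libraries a group, the 95% intervals of a member's PA effect were 0.49 to 0.80 wide on the log2 scale.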
